A study of Drosophila melanogaster with 7 samples.

Results

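The genes described here are 10 eye selector genes and partners of the eye field in Drosophila melanogaster, chosen by name: ey, toy, eya, so, dac, Optix, tsh, dan, hth and exd. A probe with a value was found for 8 of the 10, out of 5971 genes with a value in the series. For hth and exd the probe annotation used here lists no probe, so they were not analysed here. Each of the 8 genes was read by 1 probe. A value was present on all 7 arrays for toy, eya, so, dac and tsh and on 6 arrays for ey, Optix and dan, while 37.9% of the genes with a value had one on every array.

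Eye imaginal discs are the larval epithelia that form the compound eye, and they were taken from larvae of the third instar staged with bromophenol blue. The mutants were sevS11, known as an activated form of the receptor tyrosine kinase Sevenless, on 3 arrays, and sevd2 (sevd2;+;+), known as a loss-of-function allele, on 4 arrays. Both were in a w1118 background, and each array carried mutant RNA against a common pool of RNA from w1118;+;+ discs. RNA came from 2 extractions per genotype, each read on a dye-swapped pair of arrays except sevS11 extraction 2, which had a single array with the mutant in Cy5. Neither the promoter that drives sevS11 nor the number of animals per extraction is given in the labels.

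Retinal determination genes form a regulatory network that commits disc cells to eye fate. The Pax6 factors Twin of eyeless and Eyeless start it. They switch on the homeodomain factor Sine oculis and the coactivator and phosphatase Eyes absent, which bind each other and, together with Dachshund, feed back on the earlier genes. Teashirt, Homothorax and Extradenticle act in the undifferentiated cells ahead of the morphogenetic furrow, the moving front behind which photoreceptors form. Sevenless acts later and behind the furrow, in the cell that becomes the R7 photoreceptor.

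All values are log2 ratios, likely of mutant over reference, since the direction and base are not stated with the deposited values. The direction was taken from sev itself, which lay above 0 in sevS11. Values were present for 5194 to 7009 probes per sevS11 array and for 4701 to 5691 probes per sevd2 array. The number of arrays limits the precision. The lone array of sevS11 extraction 2 stood between the genotypes. Across probes it correlated at 0.633 and 0.688 with the sevS11 pair and at 0.486 to 0.653 with the sevd2 arrays, against 0.157 to 0.426 between the sevS11 pair and the sevd2 arrays. Results in sevS11 are therefore given per extraction as well as in the mean.

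The labels disagree on the tissue of the reference pool. The description fields name wing discs, and the source names, tissue fields and extraction protocols name eye discs. The log2 ratios of the 8 eye field genes to this pool lay between -0.43 and 0.73 on the arrays with a value. Of 13 wing disc genes looked up, 12 had a probe. The wing selector gene vg and the wing genes nub, rn and pdm2 had a probe but no value on any array. The same held for twi, which also stands on the muscle and myoblast list. In too few extractions to be tested were ap (-0.06 and -0.10 in sevS11), zfh2 (0.26 in sevS11 extraction 2) and Antp (-0.01 and -0.07 in sevd2). So was Doc1 (-0.19 in sevS11 extraction 1, -0.04 and 0.05 in sevd2). The wing disc genes with enough values to be tested were Doc2 (-0.27 ± 0.11 in sevS11 and -0.06 ± 0.11 in sevd2), tup (-0.05 ± 0.12 in sevS11 and -0.11 ± 0.12 in sevd2) and bs (-0.10 ± 0.10 in sevS11 and 0.23 ± 0.10 in sevd2), and none passed (limma; 1 in sevS11 and 0 in sevd2 at an unadjusted p under 0.05). Over all tested genes 5.77% in sevS11 and 0.0837% in sevd2 passed at an adjusted p under 0.05 (limma). At an unadjusted p under 0.05 the shares were 25.3% and 9.76%. Which tissue the pool came from was not tested. Why a probe was left without a value is not stated in the sources used here.

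In neither mutant did any of the 8 genes pass the test against the reference, and none differed between the mutants past the threshold. The test was limma's moderated test over 3586 genes, at a Benjamini-Hochberg adjusted p under 0.05, with 2 extractions per genotype. The spread of a gene was estimated from both genotypes together. At that threshold 5.77% of all tested genes passed in sevS11, 0.0837% in sevd2 and 0.0558% in the difference of sevS11 minus sevd2. These background counts depended on the processing. The 207 genes in sevS11 ran from 76 to 395, the 3 in sevd2 from 0 to 496 and the 2 in the difference from 0 to 85. At an unadjusted p under 0.05 the 8 genes held 1 in sevS11, 0 in sevd2 and 0 in the difference. The corresponding shares over all tested genes were 25.3%, 9.76% and 12.7%. An array-level fit also called 0 of the 8 in each comparison, with 1, 1 and 0 at an unadjusted p under 0.05. The genes that passed had an absolute log2 ratio of at least 0.46 in sevS11, 1.29 in sevd2 and 2.10 in the difference. The largest mean among the 8 genes was 0.40, that of dac in sevS11.

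The 2 Pax6 genes, ey and toy, stand at the top of the network, and neither passed in either mutant. The ey ratio was 0.24 and 0.06 on the arrays of sevS11 extraction 1 and 0.42 on that of extraction 2, and in sevd2 it was 0.26 on the 1 array of extraction 1 that had a value and -0.12 and 0.08 on those of extraction 2. Thus ey lay above the reference on every sevS11 array, and the range of sevd2 overlapped it. The means were 0.29 ± 0.12 in sevS11 (SE, n = 2 extractions; limma adjusted p = 0.217) and 0.12 ± 0.12 in sevd2 (SE, n = 2; limma adjusted p = 0.842). Its difference between the mutants was 0.17, with a 95% interval from -0.26 to 0.59.

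For toy, the upstream Pax6 gene, the sevS11 ratios were -0.34 and -0.30 in extraction 1 and 0.04 in extraction 2, and the sevd2 ratios were 0.02 and 0.31 in extraction 1 and -0.21 and 0.05 in extraction 2. The sevS11 pair was the lowest, but the array of sevS11 extraction 2 lay within the sevd2 range. The means were -0.09 ± 0.14 in sevS11 (limma adjusted p = 0.725) and 0.04 ± 0.14 in sevd2 (limma adjusted p = 0.962). The sign of the sevS11 mean rested on extraction 1. Extraction 2 stood at 0.04 as deposited and at 0.14 with the dye effect of all swapped pairs. With extraction 1 left out, the dye effect came from the sevd2 pairs alone and the ratio was 0.18, with no test.

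The homeobox gene so was the gene of this group with the clearest separation of the mutants. Its ratio was -0.26 and -0.36 in sevS11 extraction 1 and -0.25 in extraction 2. In sevd2 it was 0.07 and 0.30 in extraction 1 and -0.11 and 0.07 in extraction 2. All 3 sevS11 arrays lay below all 4 sevd2 arrays, and so was the only one of the 8 genes whose extractions did not overlap between genotypes. Among all tested genes 26.7% lay lower in both sevS11 extractions than in both sevd2 extractions and 22.3% lay higher, so 1 lower and 0 higher of 8 do not stand out from the background.

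The so mean was -0.25 ± 0.10 in sevS11 (limma adjusted p = 0.201) and 0.08 ± 0.10 in sevd2 (limma adjusted p = 0.882). The difference of sevS11 minus sevd2 was -0.34 ± 0.15 (limma adjusted p = 0.412), with a 95% interval from -0.70 to 0.03, and its absolute size exceeded that of 77.9% of tested genes. That interval holds 0. Without sevS11 replicate 2 the so mean in sevS11 was -0.15 (limma adjusted p = 0.362), and with extraction 2 alone it was also -0.15, with no test. In both cases the sevS11 pair was incomplete or absent, so the dye effect subtracted came from the sevd2 pairs alone. Before that correction sevS11 replicates 1 and 3 read -0.26 and -0.25. In bulk RNA, fewer cells that express a gene and less RNA per cell cannot be told apart.

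**Figure D1:**
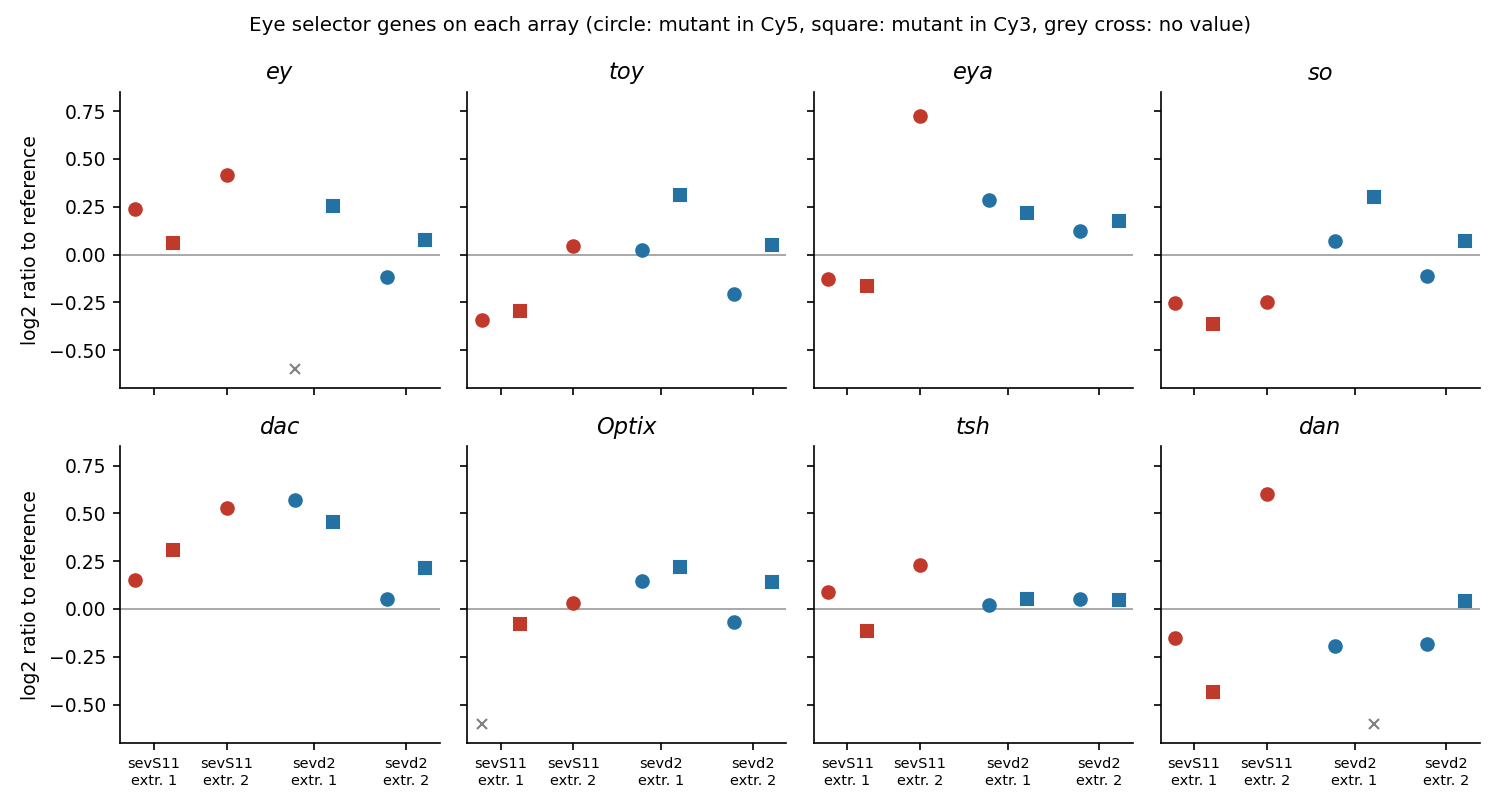
Log2 ratio to the wild-type reference (vertical axis) of the 8 eye field genes on each array, with sevS11 arrays in red on the left and sevd2 arrays in blue on the right, grouped by RNA extraction. For so all 3 sevS11 points lie below all 4 sevd2 points, dac lies above 0 on all 7 arrays, and eya and dan are at 0.73 and 0.60 on the lone array of sevS11 extraction 2 but below 0 on the pair of extraction 1.

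The partner of Sine oculis, eya, behaved differently from so. Its sevS11 ratio was -0.13 and -0.17 in extraction 1 and 0.73 in extraction 2, and its sevd2 ratio was 0.29 and 0.22 in extraction 1 and 0.12 and 0.17 in extraction 2. The 4 sevd2 arrays lay above 0 within a narrow range, and the sevS11 extractions lay on either side of that range. The means were 0.28 ± 0.20 in sevS11 (limma adjusted p = 0.411) and 0.20 ± 0.20 in sevd2 (limma adjusted p = 0.837). That SE comes from 1 spread shared by both genotypes, while extraction 2 minus extraction 1 was 0.86 in sevS11 and -0.10 in sevd2. The similar means in sevS11 and sevd2 therefore hide opposite positions of the sevS11 extractions relative to sevd2. Without the lone sevS11 array the eya ratio in sevS11 was -0.15 and the difference of sevS11 minus sevd2 was -0.35, with no test.

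The nuclear factor gene dac, which acts with eya and so, was the 1 gene of the 8 that lay above the reference on every array. Its ratio was 0.15 and 0.31 in sevS11 extraction 1 and 0.53 in extraction 2, and in sevd2 it was 0.57 and 0.46 in extraction 1 and 0.05 and 0.22 in extraction 2. The sevS11 values lay inside the range of the sevd2 values. Of the 2261 genes with a value on all 7 arrays, 6.86% were above 0 on every one, and dac was the only such gene among the 5 eye field genes with complete values.

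The dac means were 0.40 ± 0.14 in sevS11 (limma adjusted p = 0.155, unadjusted p = 0.0309) and 0.32 ± 0.14 in sevd2 (limma adjusted p = 0.541). Its absolute ratio was larger than that of 85.6% of tested genes in sevS11 and of 91.7% in sevd2. Both ratios use the same reference pool, and the test leaves out the spread of that pool. The difference between the mutants was 0.07 ± 0.20, with a 95% interval from -0.41 to 0.56, and its sign turned under scaling (-0.08) and quantile normalisation (-0.06).

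Optix encodes a homeodomain factor of the same family as Sine oculis and is known to promote the advance of the furrow. It had -0.08 in sevS11 extraction 1, from 1 array, and 0.03 on the array of extraction 2, and in sevd2 it had 0.15 and 0.22 in extraction 1 and -0.07 and 0.14 in extraction 2. Its mean in sevS11 was 0.01 ± 0.10 (limma adjusted p = 0.964) and -0.025 without the dye correction of the lone array, so it had no settled sign. In sevd2 the mean was 0.11 ± 0.10 (limma adjusted p = 0.828).

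The zinc finger gene tsh, expressed ahead of the furrow, had the narrowest spread in sevd2. Its ratios there were 0.02 and 0.05 in extraction 1 and 0.05 and 0.05 in extraction 2, while in sevS11 they were 0.09 and -0.11 in extraction 1 and 0.23 in extraction 2. The sevd2 arrays lay inside the range of sevS11. The means were 0.10 ± 0.10 in sevS11 (limma adjusted p = 0.585) and 0.04 ± 0.10 in sevd2 (limma adjusted p = 0.945).

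The gene dan encodes a nuclear factor that acts with eya and dac, and its values were the most scattered. It had -0.15 and -0.43 in sevS11 extraction 1 and 0.60 in extraction 2, against -0.19 in sevd2 extraction 1, from 1 array, and -0.18 and 0.04 in sevd2 extraction 2. The extractions of sevS11 lay on both sides of those of sevd2. The means were 0.15 ± 0.21 in sevS11 (limma adjusted p = 0.674) and -0.13 ± 0.21 in sevd2 (limma adjusted p = 0.910). The sevd2 mean moved with single arrays, to -0.0063 without sevd2 replicate 3 and -0.26 without sevd2 replicate 4. The sevS11 mean was 0.34 without sevS11 replicate 2 and 0.09 without sevS11 replicate 1. In each of these fits the dye effect came from the other genotype alone and was used to correct the array left without its partner. The moves therefore hold a change of correction as well as of arrays. The interval of the difference, from -0.44 to 1.00, was the widest of the 8.

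**Figure D2:**
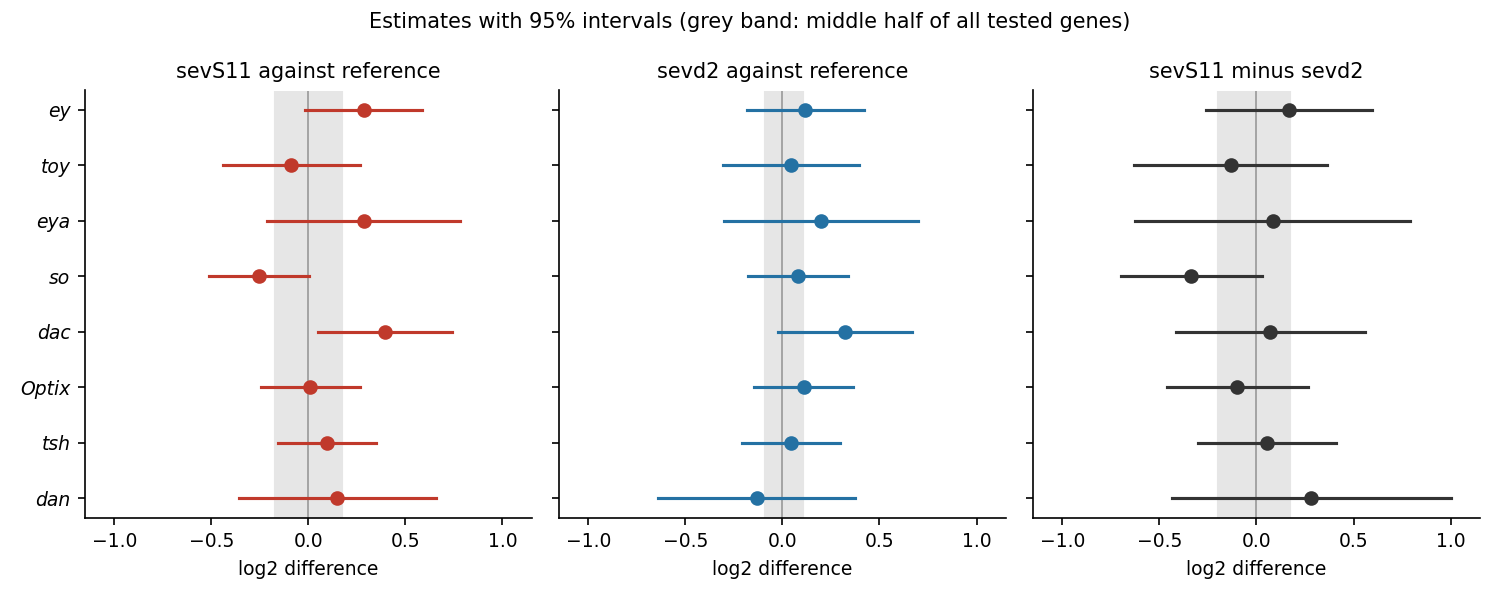
Mean log2 ratio or difference (points) with 95% interval (lines) for the 8 genes in sevS11, in sevd2 and for sevS11 minus sevd2, with the interquartile range of all 3586 tested genes as a grey band. Only the interval of dac in sevS11 lies wholly above 0, from 0.05 to 0.74, and after adjustment over all genes it did not pass.

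For eya, dan, toy, tsh and Optix the gap between the sevS11 extractions was wider than the difference between the genotype means and than the gap between the sevd2 extractions. For so the difference between the genotypes was the widest of the 3, and for dac and, barely, ey the gap between the sevd2 extractions was. The ratio of each of the 8 genes was higher in sevS11 extraction 2 than in extraction 1, with or without the dye correction of the lone array, while 51.9% of all tested genes were. The gap was 0.88 for dan and 0.86 for eya, above that of 98.8% and 98.7% of tested genes. It was 0.46 for toy, 0.34 for dac, 0.27 for ey, 0.21 for tsh, 0.18 for Optix and 0.11 for so.

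The median ratio of the 8 genes was -0.11 in sevS11 extraction 1, where 2 lay above 0, and 0.31 in extraction 2, where 7 did. Over all probes the medians of the sevS11 arrays lay near 0, at 0.0086 and 0.0117 in extraction 1 and 0.0191 in extraction 2. Without the array of extraction 2 the sevS11 ratio was that of extraction 1, 0.23 for dac, 0.15 for ey, -0.01 for tsh, -0.08 for Optix, -0.15 for eya, -0.29 for dan, -0.31 for so and -0.32 for toy. Over all tested genes the median gap between these extractions was 0.02. The median absolute gap was 0.30 for the 8 genes and 0.26 for all tested genes. The array of extraction 2 and replicate 1 of extraction 1 both carried the mutant in Cy5. At that same dye the ratio was higher in extraction 2 for the 7 genes with both values, by a wide margin for eya (0.73 and -0.13), dan (0.60 and -0.15), toy (0.04 and -0.34) and dac (0.53 and 0.15), and by almost nothing for so (-0.25 and -0.26).

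In sevd2 the median gap between extractions was smaller, and the order was the reverse for most of the genes. Extraction 1 was higher than extraction 2 for 6 of the 8 genes, the exceptions being tsh and dan, against 49.2% of all tested genes. The gap of extraction 2 minus extraction 1 was -0.38 for dac, -0.28 for ey, -0.25 for toy, -0.21 for so, -0.15 for Optix and -0.10 for eya. For dac, so and, barely, ey the gap was wider in sevd2 than in sevS11. The median absolute gap was 0.18 for the 8 genes and 0.09 for all tested genes.

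**Figure D3:**
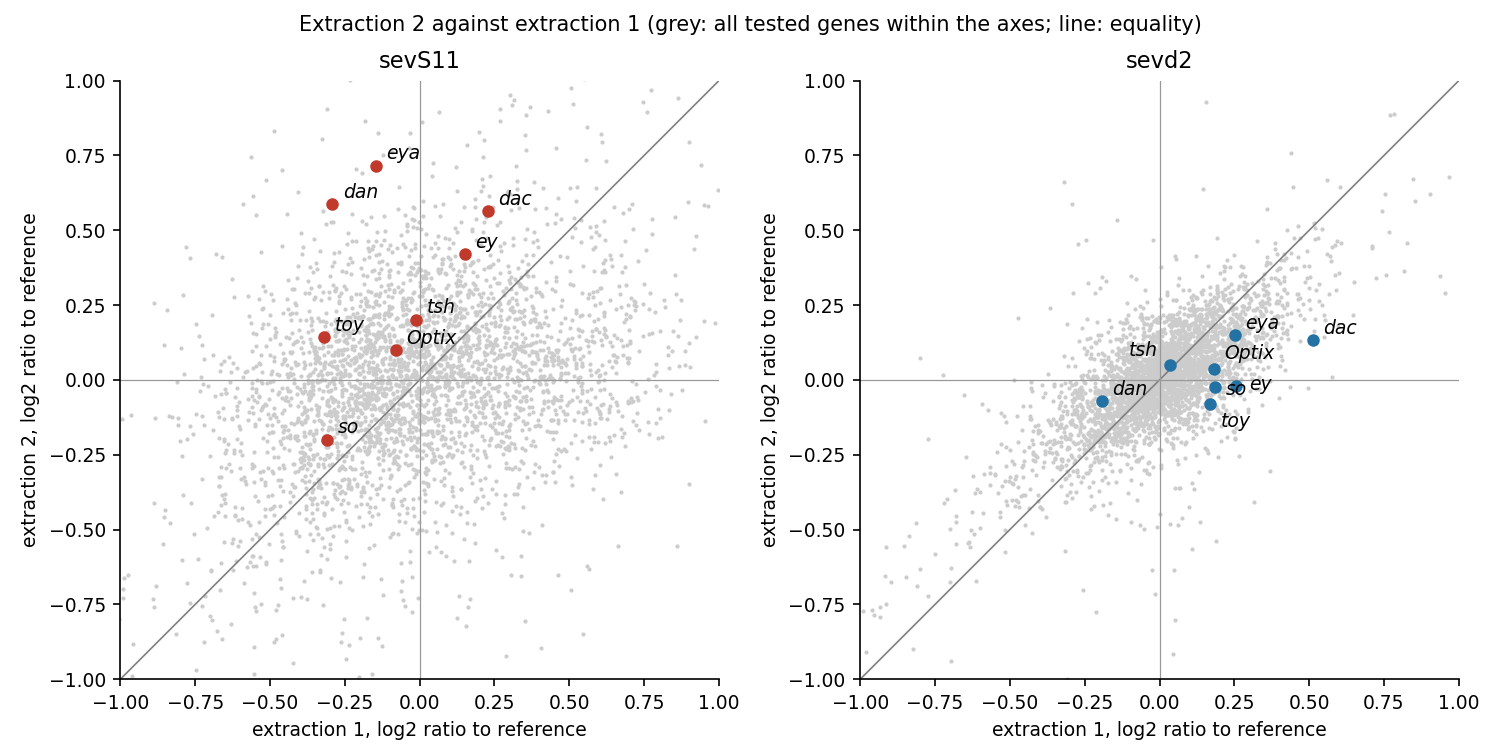
Log2 ratio in extraction 2 (vertical axis) against extraction 1 (horizontal axis) in sevS11 and in sevd2, with all tested genes in grey and the 8 eye field genes as labelled coloured points. In sevS11 all 8 points lie above the line of equality, with eya and dan farthest from it, and in sevd2 6 of the 8 lie below it.

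Within a swapped pair the arrays also differed. The dye effect is given as the array with the mutant in Cy5 minus that with the mutant in Cy3, divided by 2. In sevd2 the array with the mutant in Cy3 read higher than its swapped partner for so (dye effects of -0.11 in extraction 1 and -0.09 in extraction 2), toy (-0.14 and -0.13) and Optix (-0.04 and -0.10). In the sevS11 pair it was 0.05 for so and -0.02 for toy. Averaged over the swapped pairs with both values, the dye effect was -0.05 for so, -0.10 for toy and -0.07 for Optix. The median absolute value of this average over all tested genes was 0.06, so it is not a measure for the single pairs. The single sevd2 arrays of ey and dan in extraction 1 had no partner to cancel the dye effect. Nor had the single sevS11 array of Optix in extraction 1.

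Across the 7 arrays the most variable of the 5 genes with complete values were eya and so. The pattern of eya was most like those of Mmp2 (Pearson r = 0.971), sau (r = 0.969) and Cad87A (r = 0.967), and the pattern of so was most like those of Iswi (r = 0.965), fand (r = 0.960) and Idh (r = 0.960), among 2260 genes compared over 7 arrays. Among the 10 pairs of the 5 genes the correlation ran from 0.027 for so and tsh to 0.835 for toy and so, with 0.771 for eya and tsh, 0.626 for toy and dac and 0.619 for both toy and eya and eya and dac. The other pairs lay between 0.206 and 0.304, among them eya and so at 0.219. These values are descriptions, since the arrays share the reference pool and most come in dye-swapped pairs of 1 RNA.

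Other genes of the retinal network likewise gave no call. Of 26 listed, 17 had a value and 11 were tested. In each of the 3 comparisons 0 of the 11 passed (limma; 1 in sevS11, 1 in sevd2 and 0 in the difference at an unadjusted p under 0.05). Over all tested genes 5.77%, 0.0837% and 0.0558% passed, and 25.3%, 9.76% and 12.7% had an unadjusted p under 0.05 (limma). With shares that low, 0 of 11 does not set these genes apart. Their median was 0.02 in sevS11 and 0.13 in sevd2, beside 0.00 and 0.01 for all tested genes, and 6 lay above 0 in sevS11 and 10 in sevd2.

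The signal gene hh, which drives the furrow, averaged 0.38 ± 0.17 in sevS11 (limma adjusted p = 0.227), the extractions being at 0.04 and 0.73, and stood at 0.03 ± 0.17 in sevd2. The Pax gene eyg, which promotes eye growth, stood at -0.21 ± 0.12 in sevS11 and 0.20 ± 0.12 in sevd2, and the difference of -0.41 did not pass (limma adjusted p = 0.396). The corepressor gene gro stood at 0.27 ± 0.13 in sevS11 and 0.33 ± 0.13 in sevd2. Chi, which encodes a cofactor of LIM-homeodomain proteins, stood at -0.23 ± 0.09 in sevS11 and -0.11 ± 0.09 in sevd2. Of the 11 genes, 9 were higher in sevS11 extraction 2 than in extraction 1, beside 51.9% of all tested genes.

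The gene danr, the close neighbour in sequence and function of dan, was picked out after its values were seen. It had -0.32 in sevS11 extraction 1 and 0.56 in extraction 2, near the -0.29 and 0.59 of dan. In sevd2 danr had 0.37 and 0.19, whereas dan had -0.19 and -0.07.

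**Figure D4:**
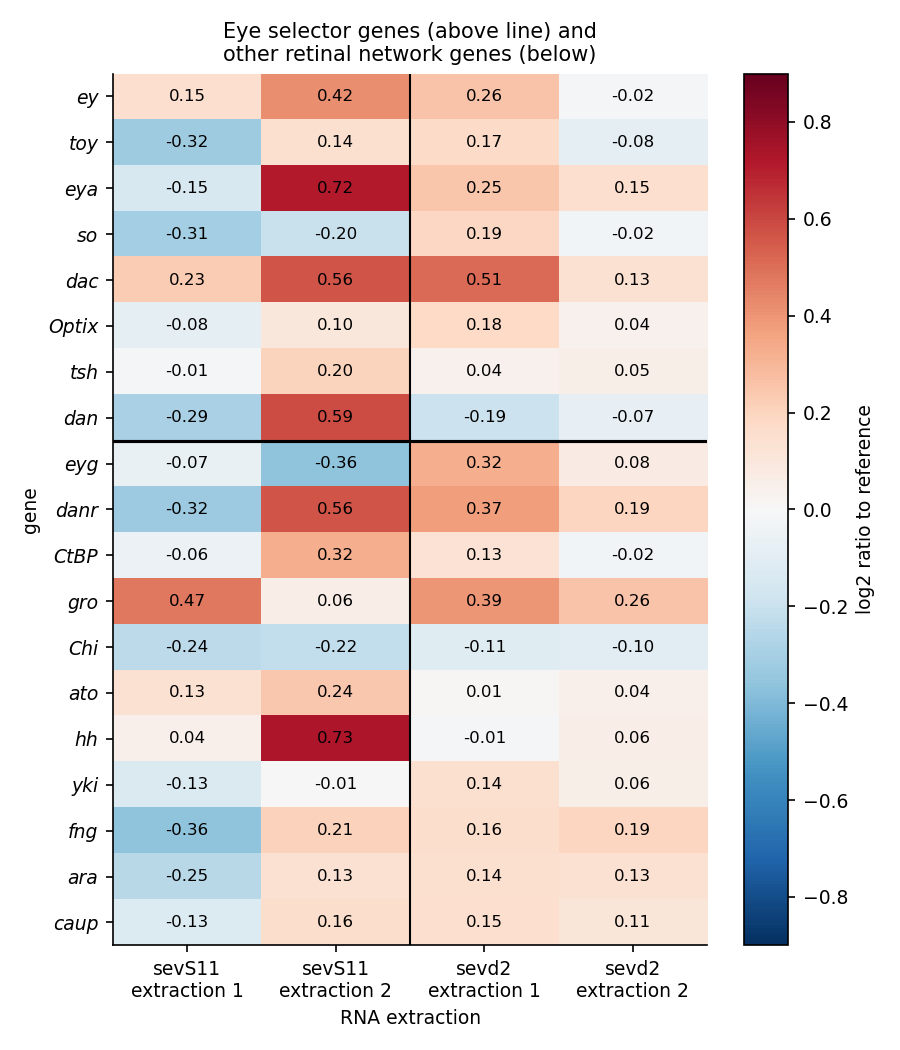
Log2 ratio to the reference per RNA extraction (columns, sevS11 left and sevd2 right) for the 8 eye field genes (above the line) and the 11 other tested genes of the retinal network (below it), with red for above and blue for below the reference. The column of sevS11 extraction 2 holds the highest values, 0.73 for hh and 0.72 for eya, and that of sevS11 extraction 1 holds more negative values than any other.

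Some markers of other cells in the dissected tissue, from the hemocyte and neuronal lists, passed in sevS11. Of 7 tested hemocyte genes 3 rose in sevS11 (He, PPO1 and PPO2) and 0 fell, beside 5.77% of all tested genes that passed there. In sevd2 0 passed (limma; 5 at an unadjusted p under 0.05, beside 9.76% of all tested genes). The other tested hemocyte genes did not pass in sevS11, where Col4a1 stood at 0.37, ush at 0.07, NimC1 at -0.25 and SPARC at -0.24. Hml (0.69 and -0.17 in sevS11 extractions 1 and 2), Pxn (0.26 and -0.09), srp (0.08 and -0.09) and eater (0.13 and -0.22) had values in too few extractions to be tested. So had vkg (0.04 in sevS11 extraction 2). In the difference of sevS11 minus sevd2, PPO1 (2.10) and PPO2 (2.72) passed, and they were the only 2 genes of all tested that did. The sevS11 ratios of the 7 tested hemocyte genes ran from -0.25 to 1.75 with a median of 0.37. Their sevd2 ratios ran from -1.01 to 0.05 with a median of -0.79. Between the sevS11 extractions the hemocyte median was 0.30 in extraction 2 and 0.45 in extraction 1, an order opposite to that of the eye field genes.

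Of 5 tested photoreceptor and neuronal genes 1 rose in sevS11, Appl (0.72 ± 0.14, limma adjusted p = 0.0419). All 5 had an unadjusted p under 0.05 there (limma), beside 25.3% of all tested genes. Of them chp (-0.46 ± 0.11) and Rop (-0.51 ± 0.11) lay below 0 and the other 3 above it. Their sevS11 ratios ran from -0.51 to 0.72, with a median of 0.51 in extraction 2 and 0.26 in extraction 1, and their sevd2 ratios ran from -0.44 to -0.01. The 3 tested glial genes had sevS11 medians of 0.01 in extraction 2 and -0.23 in extraction 1, and repo, loco and nrv2 averaged -0.36, -0.30 and -0.02 in sevS11 and -0.23, -0.07 and -0.11 in sevd2. Of the 9 antennal genes only Dll and B-H2 were tested, with 0.38 ± 0.12 and 0.02 ± 0.10 in sevS11 and 0.24 ± 0.12 and -0.04 ± 0.10 in sevd2. In the fat body list 1 gene, Lsp2, was tested (0.03 in sevS11 and -0.17 in sevd2), and in the muscle and myoblast list none was. The part of any of these cells in the eye field values was not tested.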

How the data were processed

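RNA of sevS11 and sevd2 eye discs was read on 2-colour arrays. Per the labels' protocols, the RNA was amplified and then labelled with Cy3 or Cy5. The authors deposited 1 value per probe and array, taken here as a log2 ratio. The submitters' processing notes name limma. The sources used here do not give the direction, the log base, the filter, the normalisation or the background correction. The swapped arrays of a pair correlated at 0.777 to 0.939, so the deposited ratios already run 1 way.

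Of 16416 probes, 8650 had no value. Probes were named from the platform annotation, with symbols brought up to date from RefSeq's gene table (Release 6 plus ISO1 MT) (12533 by gene identifier, 120 by accession, 511 with the older symbol kept, 101 with several genes and 3151 not listed). Probes of a gene were averaged. The arrays of an extraction were averaged, and the mean dye effect of the swapped pairs was subtracted from the array of sevS11 extraction 2. The 3586 genes with a value from all 4 extractions entered lmFit and eBayes of limma 3.58.1, run under R 4.3.3 (residual degrees of freedom 2, prior 3.8), with 1 mean per genotype, and p-values were adjusted across all genes tested. SE, n = 2 extractions per genotype, and 95% intervals come from this fit. Each gene has 1 spread estimated from both genotypes together, so its SE is the same in sevS11 and sevd2. Over all tested genes the median absolute gap between extractions was 0.26 in sevS11 and 0.09 in sevd2. The fit was tested on simulated data with changes, in sevS11 only, much larger than the means of the eye field genes. That test does not show how well the fit finds changes of their size.

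The replicate was the extraction. Whether the extractions were of different animals is not in the labels. The p-values therefore cover the spread between extractions alone, which may be technical. The genes and lists were chosen with earlier results of these data known. Named were all 8 genes with values, of each list every gene that passed or the 2 of lowest p, and the 3 genes most correlated with the 2 most variable. Genes named outside this rule, after their values were seen, were sev, danr, mirr, gl, ara, caup, Rop, Col4a1, ush, NimC1, SPARC, Hml, Pxn, srp, eater and vkg. So were Doc1, ap, zfh2 and Antp of the wing disc list, and the 5 genes of that list with a probe and no value. The alternatives changed the dye correction, centring, scaling, quantile normalisation, the level of the fit, the samples, the genes or probes used, a block on the extraction number and the arrays or extractions kept.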

Additional observations from a re-analysis of the deposited data

Results flagged for a closer look

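Among the 6 eye field genes with a value on all 4 sevd2 arrays, 1 had an array far from the others. For tsh the ratio on sevd2 replicate 1 was 0.0196, while the other 3 arrays lay between 0.0487 and 0.0525. The gap was 0.884 of the whole range, above Dixon's 95% critical value for 4 samples. Chance gives about 1 such result in 20 groups, the 4 arrays are dye-swapped pairs of only 2 extractions, and the whole range of tsh in sevd2 is 0.03.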

How the results depend on the processing

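None of the 8 genes passed under any alternative that gave a test, including the correction of every unpaired value, which was chosen after seeing the data, and the lowest adjusted p was 0.0688, for dac in sevd2 when the sevd2 extractions were fitted alone. Of 478 values of these genes under the alternatives, 453 kept their direction and 25 turned. Many of the 453 could not turn, so this count is no measure of stability. Fitting each genotype alone, genes on all arrays, single probes or a block on the extraction number left the means of these genes unchanged. So did dropping the dye correction, taking it from the sevS11 pair or leaving out sevS11 arrays, for the sevd2 means. Optix in sevS11 was -0.025 without the dye correction, with the dye effect of the sevS11 pair, in the array-level fit and with every unpaired value corrected. With 1 array or extraction left out, the ratio in sevS11 ran from -0.08 to 0.10 for Optix, from -0.15 to 0.72 for eya, from -0.011 to 0.24 for tsh, from -0.29 to 0.71 for dan and from -0.32 to 0.18 for toy. In sevd2 it ran from -0.021 to 0.26 for ey, from -0.079 to 0.17 for toy and from -0.023 to 0.19 for so. The difference ran from -0.35 to 0.52 for eya, from -0.13 to 0.28 for dac, from -0.054 to 0.19 for tsh, from -0.16 to 0.85 for dan, from -0.36 to 0.14 for toy and from -0.017 to 0.40 for ey, and that of dac was -0.0757 with scaling and -0.0644 with quantile normalisation. The lowest sevS11 values of eya, tsh, dan and toy came without the lone array of extraction 2. Leaving out that array is the same as leaving out that extraction, and fits with 1 extraction left in a genotype are given without a test. When an array or extraction was left out, the dye effect came from the swapped pairs that remained. An array that lost its partner was corrected with it too, so these ranges hold changes of that correction.

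The counts over all genes moved more. For sevS11 the 207 genes became 116 with scaling, 395 in the array-level fit, 132 for genes on all arrays and 76 to 203 with 1 array left out, the 76 without sevS11 replicate 1. For sevd2 the 3 genes became 0 without the dye correction (limma; 333 at an unadjusted p under 0.05), 5 with the dye effect of the sevS11 pair, 11 centred, 174 scaled (74 higher and 100 lower, against 2 and 1), 166 quantile normalised (75 and 91), 39 in the array-level fit, 496 with the sevd2 extractions alone, 13 for genes on all arrays, 16 with every unpaired value corrected and 4 to 22 with 1 array left out, the 22 without sevd2 replicate 2. For sevS11 minus sevd2 the 2 genes became 1 without the dye correction, 1 with the dye effect of the sevS11 pair, 27 scaled (20 higher and 7 lower, against 2 and 0), 23 quantile normalised (15 and 8), 39 in the array-level fit, 0 for genes on all arrays (limma; 287 at an unadjusted p under 0.05), 1 for single probes and 1 to 6 with 1 array left out, the 6 again without sevd2 replicate 2. The cause of these moves was not tested, other than the fewer genes or arrays in the fits that left some out. The fit of the sevd2 extractions alone took its spread from sevd2 only. There the median absolute gap between extractions was 0.09 over all tested genes, against 0.26 in sevS11. With the extraction number as a replicate block the counts were 383, 92 and 85 and none of the 8 genes passed. Across genes the deviations of same-numbered extractions correlated at -0.065, so they had little in common. Whether same-numbered extractions shared a batch was not tested.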

Other observations

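The homeobox gene mirr, which marks the dorsal part of the eye field, was picked out after its values were seen. It had a value on only 3 arrays, 1.33 and 1.46 in sevS11 extraction 1 and 1.70 on 1 array of sevd2 extraction 1, all far above the reference. It was not tested. Its neighbours in the same gene complex, ara and caup, were tested and stood at -0.06 and 0.02 in sevS11 and 0.14 and 0.13 in sevd2. The zinc finger gene gl, required for photoreceptor differentiation, was also picked out after its values were seen. It had -0.74 on 1 array of sevS11 extraction 1 and 0.54 on that of extraction 2, with -0.09 and 0.10 in sevd2 extraction 1, and was not tested.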
